A study of Mus musculus with 15 samples.

Results

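The Rab genes encode the small GTPases that direct membrane traffic, the largest branch of the Ras superfamily. They were taken as every gene symbol made of Rab and a number, with at most one further letter and digit, which gave 58 of the 43472 gene symbols counted in RNA of extracellular vesicles (EVs) from mouse blood. EVs are membrane particles that cells release. The methods of the study give plasma as their source, and the sample labels give serum. There were 15 libraries of polyA RNA, 3 from wild type (WT) mice, 6 from dystrophic (Dys) mice labelled Sgcb null and 6 from hypertrophic (Hyp) mice labelled MAGIC F1. Sgcb encodes beta-sarcoglycan, a part of the dystrophin complex of muscle fibers. The methods list both Mstn-null and Magic-F1 mice as hypertrophic animals and give Mstn-null alone where they describe this sequencing, so only the condition was used here. The mice were 3 to 6 months old, and the EVs of 2 to 3 mice were pooled for each library, so a library is the average of a pool and not 1 animal. For 6 libraries (Dys replicates 4 to 6 and Hyp replicates 1 to 3) the number in the sample's title was not the number of its counts, and the numbers were crossed between the conditions. Levels are given as CPM, the reads of a gene after scaling each library to 1000000 reads on genes, and a gene was detected where it had at least 1 read.

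Rab proteins cycle between a GTP-bound form that recruits effectors to a membrane and a GDP-bound form that a carrier extracts from it. Each compartment of the endocytic and secretory routes carries its own members: Rab5 proteins mark early endosomes, Rab7 late endosomes, Rab11 proteins recycling endosomes, and Rab27 proteins act in the docking of granules and multivesicular bodies at the plasma membrane, from which exosomes are released. Almost all members are attached to membranes by lipid groups added to cysteines at the end of the protein.

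The ends of the coding sequences are shown for 4 of the Rab genes with reads in the most libraries and for Rab7, Rab8a, Rab9 and Rab27a, on which the results below turn, because the lipid anchor is the feature that these mRNAs share and that the choice by symbol did not use. They are the last 30 coding bases before the stop codon, that is 10 codons, written in the direction of the gene, with the cysteine codons in capitals (GENCODE M21, GRCm38/mm10).
Rab11a, chr9:64716852-64716881, minus strand: aagccaaaggtgcagTGCTGTcagaacatc
Rab10, chr12:3249790-3249819, minus strand: ggcgtgacgggctggaagagcaagTGCTGC
Rab22a, chr2:173701087-173701116, plus strand: cagccatcggagccaaagcgaagcTGCTGC
Rab1b, chr19:5100381-5100410, minus strand: cctgtgaagcctgctagcggtggcTGCTGC
Rab7, chr6:88000438-88000467, minus strand: gccaaggcctccgcagaaagcTGCagtTGT
Rab8a, chr8:72180105-72180134, plus strand: aggaccagcttcttccggTGCagtctcctg
Rab9, chrX:166457711-166457740, minus strand: cgaaagcccaagccaaactcatctTGCTGT
Rab27a, chr9:73095424-73095453, plus strand: gaggagaaggagaaggggttgTGTggcTGT
All 58 Rab genes were matched to this annotation, Rab1 under its other name Rab1a, and 49 of them had 2 cysteine codons among the last 5 codons while 9 had 1. Rab8a, which acts in secretion to the cell surface, was one of those 9. Reads were 50 bases long, and 30 of the 58 shared at least 1 stretch of this length with another gene, of which 10 shared over 10% of their stretches. Rab43 shared 74.5% with Gm45140, Rab2b 57.0% with 2 genes and Rab24 49.6% with Prelid1, so the reads of these 3 genes are uncertain. Rab4b shared 58.1%, mostly with Gm21983, so its count of 0 in every library is uncertain too. Rab11a shared 1.85%, Rab27b 0.244% and Rab5c 0%, whereas 12.7% of the stretches of Rab7 are also found elsewhere, mostly in the pseudogene Rab7-ps1.

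Depth differed widely: WT libraries held 27227 to 7738568 reads on genes, Dys libraries 1170610 to 32563362 and Hyp libraries 328710 to 6461652. By counting error alone, a count of 0 therefore allows a level of up to 0.0921 CPM in the deepest and 110 CPM in the shallowest library, WT replicate 1. Of the EV markers, Cd9 had reads in all 15 libraries, Cd81 in 11 and Cd63 in 10. Platelet markers summed to between 20543 and 32174 CPM in WT, between 10079 and 21839 CPM in Dys and between 18321 and 37264 CPM in Hyp libraries, and markers of red cells to between 22933 and 155950 CPM over all of them. Fewer EVs of a cell type and less RNA per EV cannot be told apart in such bulk libraries.

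Reads of the Rab family were found in every library, but no single Rab gene was in all of them. At least 1 read was counted for 47 of the 58 Rab genes, or 81.0%, against 30.6% of all gene symbols. The latter include pseudogenes and microRNAs, such as Rab11b-ps2 and Mir6340, whereas each of the 58 Rab genes has a complete coding sequence. The shares therefore do not compare like genes. Rab10 and Rab11a were each missing from 1 library, 13 Rab genes were present in 10 or more libraries, 13 in 5 to 9, 13 in 2 to 4, and 8 in only 1. The median Rab gene with reads was found in 7 libraries, against 3 for all 13281 genes with reads, and 27.7% of these Rab genes reached 10 libraries, against 9.68% of all genes. The remaining 11 had 0 reads in all libraries, namely Rab3a, Rab3b, Rab4b, Rab9b, Rab17, Rab25, Rab26, Rab39, Rab39b, Rab40c and Rab42. Among these, Rab3a and Rab3b are known from the synapse and Rab17 and Rab25 from epithelia. Of the other Rab3 genes, Rab3c had 6 reads in Dys replicate 6 and Rab3d had reads in 4 libraries.

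**Figure D1:**
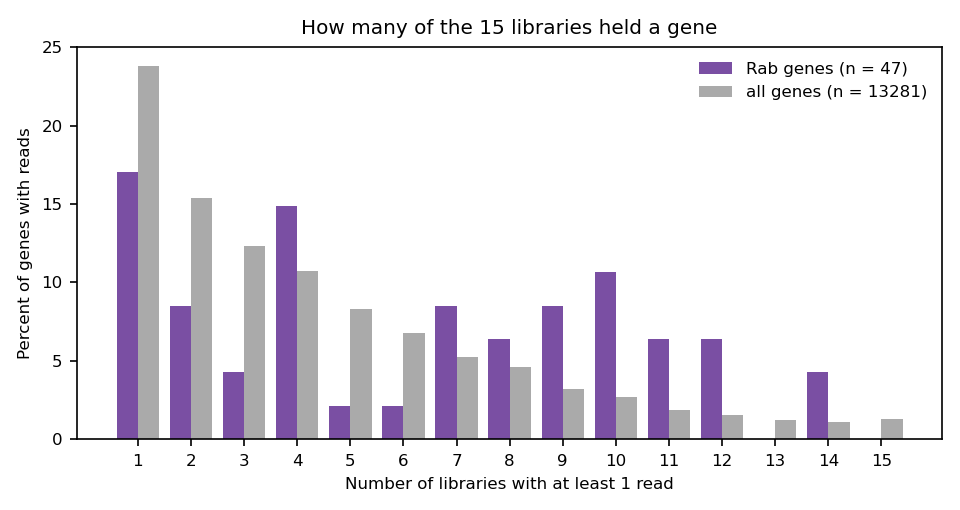
Bars give the percentage of genes (y axis) found with at least 1 read in a given number of the 15 libraries (x axis), for the 47 Rab genes and for all 13281 genes with reads. In 1 library were 17.0% of these Rab genes against 23.8% of all genes, and in 10 or more 27.7% against 9.68%, with no Rab gene at 13 or 15 libraries.

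A Rab gene was as a rule either well covered in a library or not seen at all. Of the 870 pairs of a Rab gene and a library, 574 had 0 reads, 20 had 1 to 3 reads, 2 had 4 to 9 and 274 had 10 or more, with a median of 346 reads in the 296 pairs with any. WT replicate 3 alone held 9 of the 20 pairs with 1 to 3 reads. Many zeros fell on genes that other libraries of the condition held. For 447 pairs, 10 or more reads were predicted from the mean level in the remaining libraries of that condition, and 200 of them had 0 reads. This is 44.7%, with a 95% Wilson interval of 40.2% to 49.4% that treats the pairs as independent. The zeros were clustered by library, with 36 of 39 such pairs in Dys replicate 4 and 1 of 15 in WT replicate 2, so the interval is too narrow. Spread between pools of mice and spread from amplification cannot be told apart here. Over all genes 56.1% of such pairs were at 0, so such zeros were also common outside the Rab family. Presence over the 15 libraries took 43 different patterns among the 47 Rab genes.

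**Figure D2:**
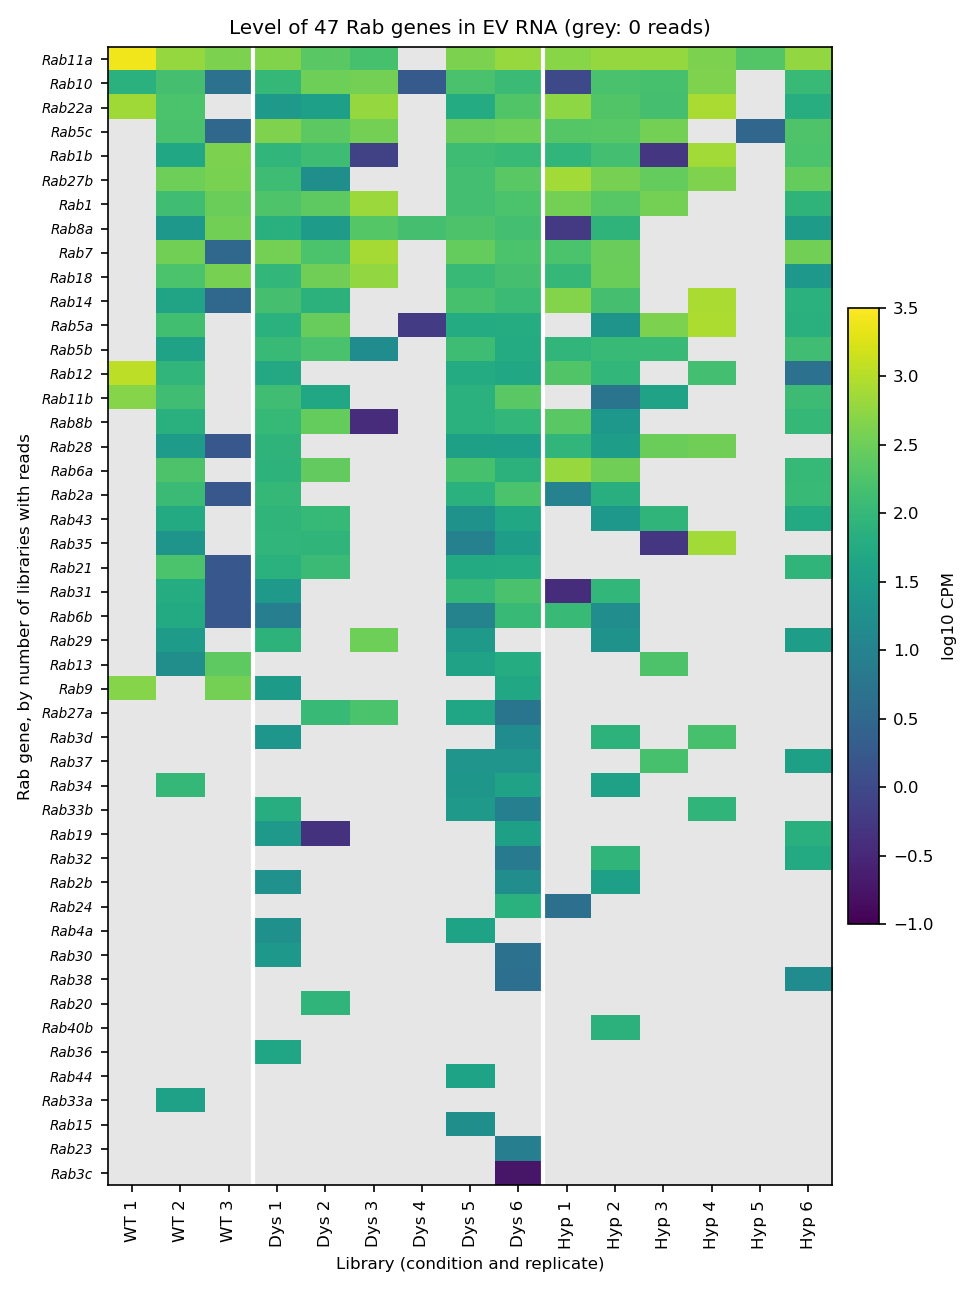
Each row is 1 of the 47 Rab genes with reads, ordered by the number of libraries that held it, each column is 1 library, and the colour gives log10 CPM, with grey for 0 reads. Rab11a and Rab10 fill 14 libraries each, the lower rows hold 1 or 2 filled cells, and the columns of Dys 4 and Hyp 5 are almost empty.

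The number of Rab genes in a library ran from 2 to 39. It was 6, 28 and 17 in the WT libraries, it ranged from 3 through a median of 27.5 to 39 in Dys libraries and from 2 through 17.5 to 28 in Hyp libraries. The highest number was in the deepest library, Dys replicate 6, and the conditions overlapped widely. The summed level of the family ran from 150 to 6089 CPM over all libraries. It was 5473, 3504 and 2868 CPM in WT libraries, 3441, 3337, 4262, 150, 3184 and 3877 CPM in Dys replicates 1 to 6, and 4542, 3915, 3222, 6089, 204 and 2951 CPM in Hyp replicates 1 to 6. Dys replicate 4 and Hyp replicate 5 had the lowest sums and are left out for that reason where the other 13 libraries are named. The means, medians and main tests of the conditions include them. In the other 13 libraries the family took a share of the reads that varied 2.12-fold, while these libraries held between 6 and 39 members. As the libraries with the lowest sums were left out, this range is narrower than the 150 to 6089 CPM over all libraries. It therefore does not show a stable share. The means were 3948 ± 1358 CPM (SD, n = 3) in WT, 3042 ± 1471 (SD, n = 6) in Dys and 3487 ± 1960 (SD, n = 6) in Hyp libraries, and differed by less than the spread within each condition.

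**Figure D3:**
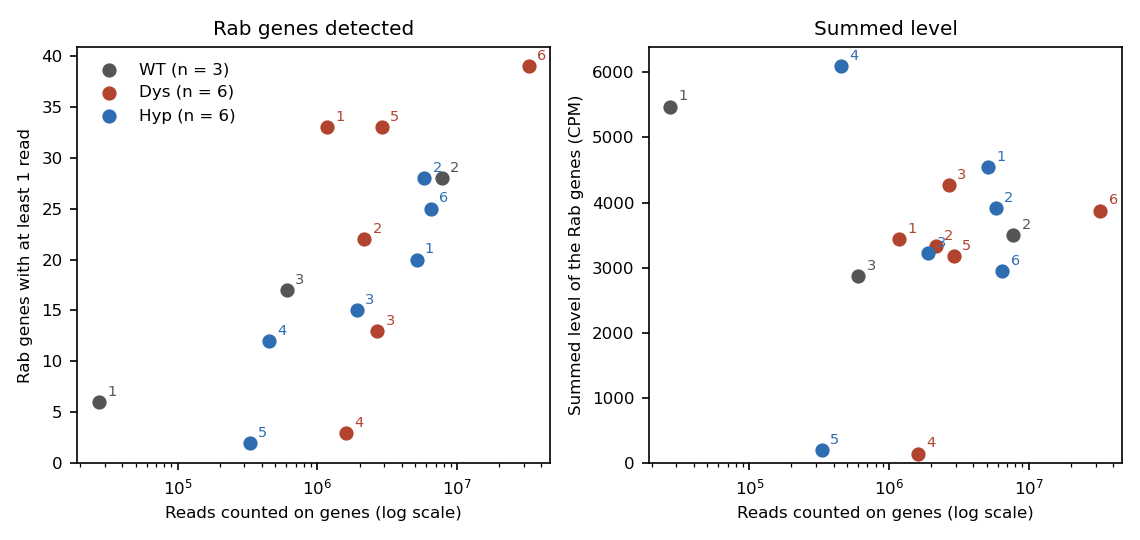
Each point is 1 library with its replicate number, plotted at the reads counted on genes (x axes, log scale) against the number of Rab genes with at least 1 read (left) and the summed level of the Rab genes in CPM (right). Dys 4 and Hyp 5 lie near the bottom of both panels, at 150 and 204 CPM in the right one, while the other 13 libraries lie between 2868 and 6089 CPM.

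The pair of libraries with little Rab RNA each rested on 1 gene. In Dys replicate 4, Rab8a held 237 of the 241 Rab reads, or 98.3% (95% Wilson interval 95.8 to 99.4), with Rab10 and Rab5a at 3 and 1 reads. In Hyp replicate 5, Rab11a held 66 of 67 Rab reads, or 98.5% (92.0 to 99.7), and the other read fell on Rab5c. Few genes of any kind were detected in them, 1103 and 814, and only WT replicate 1 had fewer, with 797. Of the 7 EV markers 5 and 2 had reads, Cd9 at 9769 and 5783 CPM, and the platelet markers summed to 21839 and 29829 CPM. In the other 13 libraries the leading Rab gene held between 9.93% and 46.98% of the Rab reads. It was Rab11a in 10 of all 15 libraries, and Rab18, Rab7, Rab8a, Rab27b and Rab5a in 1 each.

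Among the recycling Rabs, Rab11a was found in 14 libraries, as was Rab10 of another group, and had the highest mean level of the family per length of its exons over all libraries, though not in Dys libraries. Rab11a directs recycling endosomes to the cell surface. Its level was 2571, 605 and 407 CPM in the WT libraries, where the first value stands on 70 reads. In Dys libraries it ranged from 0 through a median of 320 to 644 CPM, and in Hyp libraries from 201 through 545 to 618 CPM. The ranges overlapped, the Hyp libraries were the most alike, and the 0 was in Dys replicate 4. Averaged over all libraries, Rab11a stood at 187 CPM per kilobase of exon, followed by Rab5c at 84.2, Rab7 at 74.7, Rab1b at 60.7 and Rab1 at 50.2 on the same scale. The per-length levels of Rab11a were 399 ± 400 (SD, n = 3) in WT, 104 ± 77.4 (SD, n = 6) in Dys and 164 ± 54.3 (SD, n = 6) in Hyp libraries. In Dys libraries Rab5c (124 ± 67.9) and Rab7 (112 ± 103) had higher per-length means, by less than these SDs, and the WT mean is lifted by the library with 70 reads. For the other 4 genes the SD within each condition was larger than the distance to the next gene in this order. Rab14, which acts between the Golgi and endosomes, was found in 10 libraries, and Rab11b, the close relative of Rab11a, in 9. Rab35, which returns cargo from endosomes to the plasma membrane, was in 7, with 747 CPM in Hyp replicate 4 and at most 93.1 CPM elsewhere. Of the other 5 genes of this group, Rab4a had reads in 2 libraries and Rab15 in 1, and Rab4b, Rab17 and Rab25 had none.

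All 7 Rabs of the early endosome had reads, and 4 of them were in 10 or more libraries, the highest share of any group. Rab5c, which drives early endosome fusion with its relatives Rab5a and Rab5b, was found in 12 libraries, at 0, 159 and 3.33 CPM in WT, from 0 through a median of 302 to 428 CPM in Dys and from 0 through 196 to 368 CPM in Hyp libraries. Rab22a, another early endosomal Rab, was also found in 12, at 735, 165 and 0 CPM in WT, from 0 through 46.5 to 616 CPM in Dys and from 0 through 170 to 845 CPM in Hyp libraries. No condition lay apart for either gene. Rab5a was more uneven, with 415 and 889 CPM in Hyp replicates 3 and 4, 290 CPM in Dys replicate 2 and at most 137 CPM in the other libraries. Rab31, which acts between the trans-Golgi network and endosomes, had reads in 7 libraries, of which WT replicate 3 and Hyp replicate 1 held 1 and 2 reads.

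The late endosomal Rabs were seen less evenly. Rab7, which controls fusion of late endosomes with lysosomes, was found in 10 libraries, at 0, 350 and 3.33 CPM in WT libraries. It ranged from 0 through a median of 221 to 777 CPM in Dys and from 0 through 85.6 to 349 CPM in Hyp libraries, where 3 of 6 were at 0. Rab9, which returns cargo from late endosomes to the Golgi, had 13 and 220 reads (477 and 366 CPM) in WT replicates 1 and 3, 33 and 1634 reads (28.2 and 50.2 CPM) in Dys replicates 1 and 6, and 0 reads in the other 11 libraries, which include all 6 Hyp libraries. Rab24, known from autophagy, had reads in Dys replicate 6 and Hyp replicate 1, and Rab9b, the relative of Rab9, had none.

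The Rabs of exocytosis and granule release include both Rab27 genes, whose presence over the libraries differed. Rab27b, which platelets and secretory cells use for granule release, had reads in 11 libraries. Its level was 0, 318 and 394 CPM in WT libraries. It ranged from 0 through a median of 72.6 to 227 CPM in Dys and from 0 through 329 to 743 CPM in Hyp libraries, so the ranges overlapped. The 5 Hyp libraries with reads all lay above the highest Dys library, but Hyp replicate 5 was at 0. The range of the platelet markers was also lowest in Dys libraries, with overlap (10079 to 21839 CPM against 18321 to 37264 CPM in Hyp). Their part in the level of Rab27b was not tested. Rab27a, used by cytotoxic cells and melanocytes to dock granules, had reads only in 4 Dys libraries, with 244, 446, 127 and 183 reads (113, 166, 44.0 and 5.62 CPM) in replicates 2, 3, 5 and 6. Of the 15 libraries, 3 held reads of both genes, 8 of Rab27b only, 1 of Rab27a only and 3 of neither. With the 6 libraries of crossed numbers exchanged, Rab27a fell in 2 of 6 Dys and 2 of 6 Hyp libraries, and the Rab27b means became 258 ± 280 (SD, n = 6) CPM in Dys and 176 ± 164 (SD, n = 6) CPM in Hyp libraries instead of 85.5 ± 93.9 and 349 ± 243. With the same exchange the platelet markers ran from 10079 to 37264 CPM in Dys and from 13523 to 29829 CPM in Hyp libraries. The difference between these conditions for both Rab27 genes and for the platelet markers thus depended on which label of these libraries is right.

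**Figure D4:**
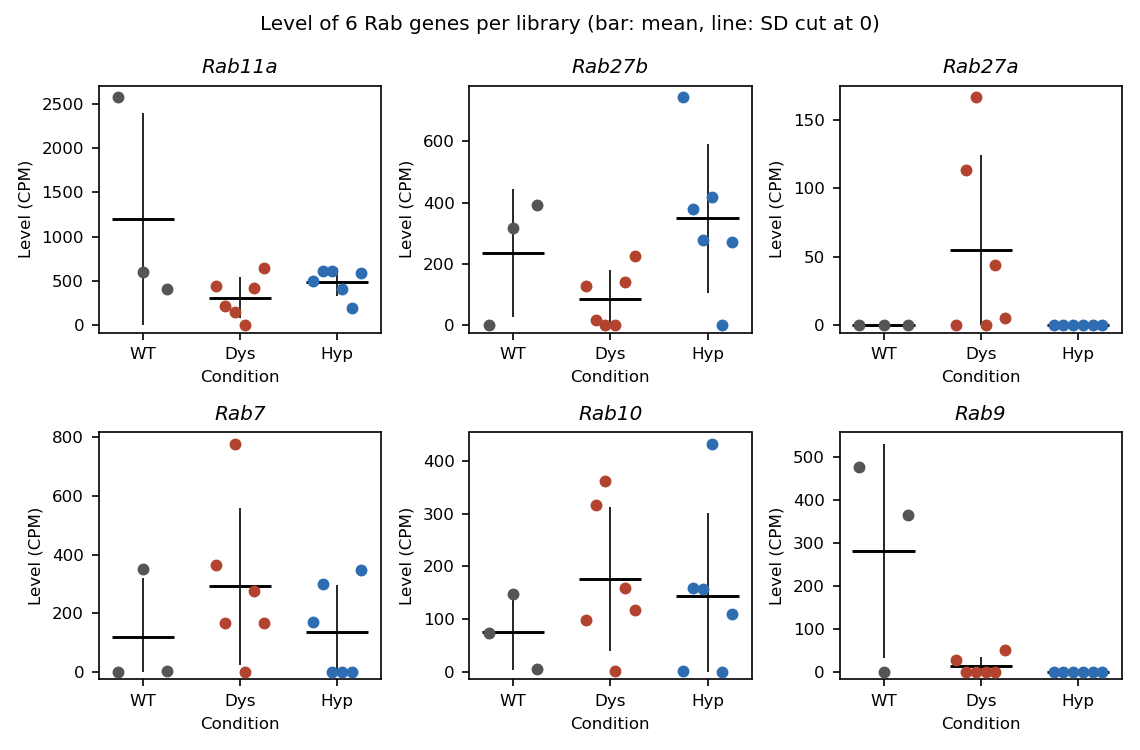
Each point is the level of 1 Rab gene in 1 library in CPM (y axes, linear) by condition (x axes), with the mean as a bar and the SD as a line that stops at 0, for WT (n = 3), Dys (n = 6) and Hyp (n = 6) as labelled. Rab27a is above 0 only in 4 Dys libraries, Rab9 only in WT and Dys libraries, and the points of Rab11a, Rab7 and Rab10 overlap between the conditions.

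Rab10, which moves vesicles from the Golgi and endosomes to the surface, was found in 14 libraries, at 73.5, 148 and 4.99 CPM in WT libraries, from 1.86 through a median of 138 to 361 CPM in Dys and from 0 through 134 to 432 CPM in Hyp libraries. Rab8a was found in all 6 Dys libraries, from 29.2 through 145 to 209 CPM, at 0, 25.3 and 349 CPM in WT, and in 3 of 6 Hyp libraries, at 0.586, 83.1 and 29.7 CPM. The ranges of Rab10 overlapped, and the WT libraries of Rab8a spanned those of both other conditions. Rab3d, a Rab of secretory granules, and Rab37, found on granules of mast cells, had reads in 4 libraries each.

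Of the 15 Rabs of the endoplasmic reticulum and Golgi, 13 had reads, and Rab1b, Rab1 and Rab18 reached 10 or more libraries. Rab1 and Rab1b drive transport from the endoplasmic reticulum to the Golgi. Rab1b ranged from 0 through 50.3 to 406 CPM in WT, from 0 through a median of 100 to 126 CPM in Dys and from 0 through 116 to 761 CPM in Hyp libraries. Rab1 was at 0, 131 and 304 CPM in WT, from 0 through 175 to 679 CPM in Dys and from 0 through 149 to 356 CPM in Hyp libraries. Rab18, a Rab of lipid droplets and the endoplasmic reticulum, was at 0, 167 and 372 CPM in WT, from 0 through 130 to 595 CPM in Dys and from 0 through 12.7 to 307 CPM in Hyp libraries. These 3 genes overlapped between all conditions, and each was at 0 in Dys replicate 4 and Hyp replicate 5. Rab2b had reads in 3 libraries, of 22, 519 and 204 reads, in Dys replicates 1 and 6 and Hyp replicate 2.

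The Rabs of lysosome-related organelles, Rab32, Rab38 and Rab29, were in 3, 2 and 6 libraries. Rab32, needed for pigment and platelet granules, had 243 reads in Dys replicate 6 and 511 and 371 reads in Hyp replicates 2 and 6 (7.46, 88.1 and 57.4 CPM). Of the 8 Rabs left outside these groups, Rab12, which acts between endosomes and lysosomes, was in 9 libraries and had the second highest mean of the WT libraries, 410 ± 632 CPM (SD, n = 3), which rests on 31 reads in WT replicate 1. Rab28 was in 9 libraries too, Rab19 in 4, and Rab23, Rab40b and Rab44 in 1 each.

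By condition, 29 Rab genes had reads in at least 1 WT library, 45 in at least 1 Dys library and 36 in at least 1 Hyp library, out of 3, 6 and 6 libraries. All 3 conditions shared 27 of the 47, or 57.4%, against 35.4% of all genes with reads. Only in Dys libraries were 9 found, Rab4a, Rab3c, Rab15, Rab20, Rab23, Rab27a, Rab30, Rab36 and Rab44, which is 19.1% against 23.9% of all genes with reads, so the share was near the background. Of these 9, Rab23 and Rab3c rested on Dys replicate 6 alone, Rab15 and Rab44 on replicate 5, Rab20 on replicate 2 and Rab36 on replicate 1. Without Dys replicate 6, 7 of 45 were left, or 15.6%, against 18.3% of all genes. Rab40b was found only in Hyp replicate 2 and Rab33a only in WT replicate 2, each 2.13% of the Rab genes with reads. Over all genes with reads, 7.12% were found in Hyp libraries only and 2.28% in WT libraries only. With the crossed libraries exchanged, 3 were found in Dys libraries only (6.38% against 9.52% of all genes) and 5 in Hyp libraries only (10.6% against 18.9%), so these counts depended on the labels of the 6 libraries.

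None of the Rab genes passed the test of a difference in level between conditions. edgeR's quasi-likelihood test, fitted to all genes, tested 6887 genes, 35 of them Rab genes, and at an adjusted p under 0.05 called 0.0290% of all genes in Hyp against WT, 0.0145% in Dys against WT and 0.0145% in Hyp against Dys, with 0 Rab genes in each. At an unadjusted p under 0.05 there were 1, 0 and 2 Rab genes of 35, against 8.02%, 2.02% and 12.0% of all genes, so that in no comparison was the share of Rab genes above that of all genes. The first 2 comparisons share the WT libraries. The median log2 fold change of the tested Rab genes was 0.03 in Hyp against WT, 0.88 in Dys against WT and -0.36 in Hyp against Dys, and that of all tested genes 0.66, 1.38 and -0.52. The biological coefficient of variation, as edgeR names it, was 3.04, so the replicates of a condition differed for a typical gene by several times its mean. This spread holds that of amplification as well as that between pools.

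The smallest p-values belonged to members with 0 reads in a whole condition. Rab9 was lower in Hyp than in WT libraries (edgeR unadjusted p = 0.000988, adjusted p = 0.267) and lower in Hyp than in Dys (unadjusted p = 0.00601, adjusted p = 0.123), and Rab27a was lower in Hyp than in Dys (unadjusted p = 0.00666, edgeR adjusted p = 0.123). If each 0 in Hyp stood for at most 3 reads, the mean of Rab9 would be 89.1-fold higher in WT libraries. That of Rab27a would be 17.4-fold higher in Dys libraries. This limit holds for counting error alone. As 44.7% of Rab pairs with 10 or more predicted reads were at 0, these folds are not lower bounds. The fold for Rab9 was 58.0 without WT replicate 1, 134 without WT replicate 2 and 144 without Hyp replicate 5. The fold for Rab27a was 10.3 without Dys replicate 3 and 28.0 without Hyp replicate 5. With the crossed libraries exchanged neither gene was at 0 in Hyp libraries, as Rab9 then had reads in 1 Dys and 1 Hyp library, while Rab27a stayed at 0 in WT libraries. Next in order came Rab32 (edgeR adjusted p = 0.430) and Rab37 (0.430) in Hyp against WT. In Dys against WT, they were Rab27a, Rab33b, which acts in Golgi traffic and autophagy, and Rab19, each at an edgeR adjusted p of 0.433, and in Hyp against Dys Rab32 at an edgeR adjusted p of 0.9998, where its log2 fold change was 3.99 ± 3.18 (SE).

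For members with reads in both conditions no fitted difference exceeded 2 standard errors. There were 27 such Rab genes in Hyp against WT, with log2 fold changes from -2.84 to 3.16, 28 in Dys against WT, from -3.90 to 2.35, and 33 in Hyp against Dys, from -2.60 to 3.99, and their standard errors ran from 1.24 to 3.68. The most precise was Rab11a, with log2 fold changes of -1.11 ± 1.48 (SE) in Hyp against WT, -1.37 ± 1.47 in Dys against WT and 0.26 ± 1.24 in Hyp against Dys. Rab27b stood at 0.05 ± 2.01, -1.43 ± 1.94 and 1.49 ± 1.68, and Rab7 at 0.03 ± 2.11, 0.88 ± 2.19 and -0.85 ± 1.73, in the same order. Errors of this size leave several-fold differences in either direction undetectable at this number of libraries.

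**Figure D5:**
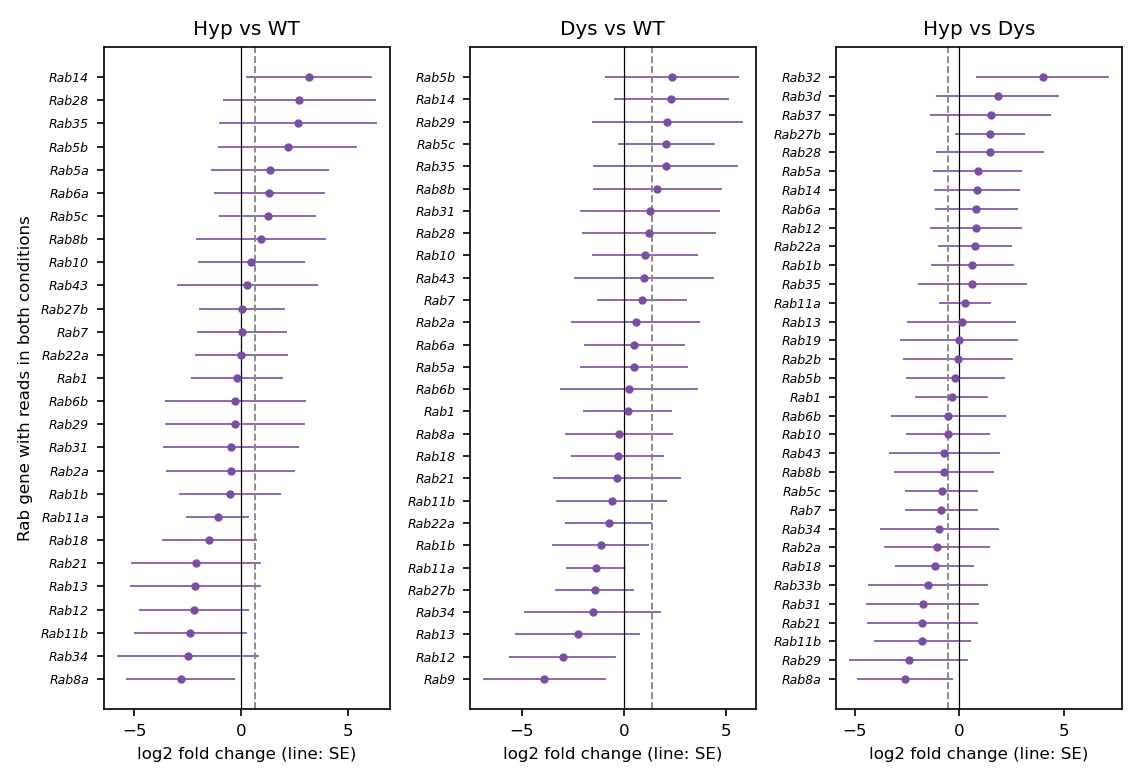
Each point is the edgeR log2 fold change (x axes) of 1 Rab gene with reads in both conditions compared, with its SE as a line, for Hyp against WT (27 genes), Dys against WT (28) and Hyp against Dys (33). The solid line marks 0 and the dashed line the median of all genes tested, 0.66, 1.38 and -0.52, and no point lies more than 2 SE from 0.

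A different count model gave more calls, all on absence. DESeq2 called 6 Rab genes in Hyp against WT at an adjusted p under 0.05, namely Rab19, Rab2b, Rab32, Rab37 and Rab3d as higher and Rab9 as lower, where 20.7% of all genes with an adjusted p were called higher and 3.75% lower. It called the first 5 of these also higher in Dys than WT (background 20.8%), which shares the WT libraries, and Rab27a as lower in Hyp than Dys (background 4.84%). Every one of these Rab genes had 0 reads in all libraries of 1 of the conditions compared. For the 5 absent from WT, the mean that 3 reads in each WT library would give is 38.5 CPM, mostly from the shallow replicate 1. Even by counting error alone, absence from WT therefore gives no bound for most of them. When only presence was tested, with Fisher's exact test for each of 13281 genes (two-sided), 0% of genes and 0 Rab genes were called in each comparison after adjustment. At an unadjusted p under 0.05 it found 18 genes in Hyp against WT, 75 in Dys against WT and 25 in Hyp against Dys, or 0.136%, 0.565% and 0.188%, and 0 Rab genes. The smallest exact p of a Rab gene was 0.0606, for Rab27a in 0 of 6 Hyp and 4 of 6 Dys libraries, and with Rab9 in 0 of 6 Hyp and 2 of 3 WT libraries it was 0.0833, where this design allows no exact p below 0.00216 and 0.0119.

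No gene that regulates the Rab cycle passed the edgeR test either. Of a list of GDP dissociation inhibitors, escort and prenylation factors, exchange factors, GTPase-activating proteins and effectors, 67 could be tested, and 0 were called by edgeR in any comparison, in either direction. At an unadjusted p under 0.05 in edgeR, 4 were lower in Hyp than WT, 0 differed between Dys and WT, and 8 were lower and 1 higher in Hyp than Dys, beside the backgrounds given above. DESeq2 called 15, 13 and 4 of the 67 at an adjusted p under 0.05. Of the 6242 genes with an adjusted p it called 1528, 1315 and 323, so the shares were near the background. Bicd2, which links Rab6 vesicles to dynein, was in 13 libraries, Gdi2, which extracts Rab proteins from membranes, in 12, and Dennd5a, Rabgap1l and Rin3 in 11 each. Dys replicate 4 and Hyp replicate 5, the libraries with almost no Rab reads, also held few of these genes. In Dys replicate 4 the exchange factors summed to 0 CPM, the GTPase-activating proteins to 0.622 CPM and the effectors to 839 CPM, all of the last from Bicd2. In Hyp replicate 5 the same sums were 347, 0 and 3.04 CPM. Gdi2 was present in both, at 472 and 1083 CPM.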

How the data were processed

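The authors pooled EVs of 2 to 3 mice per sample, amplified the RNA, aligned reads of 50 bases with TopHat to mm10 and deposited counts, the raw number of reads per gene symbol, without normalization or filter. HTSeq is listed in the submitters' processing notes, and the annotation is not given in the sources used here. Sources differ on the kit (TruSeq Stranded mRNA or TruSeq RNA v2) and the sequencer.

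The 5 summary lines of each table, 57.9% to 99.2% of its numbers, were dropped. Conditions came from the labels. Replicate numbers were given in sample order and only name libraries. CPM used all gene rows. Levels were tested with edgeR 4.0.16 (R 4.3.3, TMM, filterByExpr, quasi-likelihood fit to all 15 libraries and 3 conditions, Benjamini-Hochberg over all genes tested), with DESeq2 1.42.0 as an alternative, and presence with Fisher's exact test (scipy 1.17.1). These steps were tested on simulated data. SEs came from the F statistic. P-values measure the spread between libraries, in which pools of mice, amplification and depth cannot be told apart. A count of 0 was taken to allow 3 reads per library, which holds for counting error alone. Sequences and shared stretches of 50 bases came from GENCODE M21.

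The Rab genes, their grouping by role, the pathway list and the tests were chosen with earlier results of these data known. Named were Rab27a, Rab27b, Rab11a, Rab7, Rab35, Rab31, Rab5a, Rab2b and Rab9, the 10 members in most libraries, the 3 with the smallest p in each comparison as none passed, the 3 highest of each condition and those at 0. Other members named in the text were chosen after their values were seen. The closing section gives the alternatives.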

Additional observations from a re-analysis of the deposited data

Results flagged for a closer look

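In groups of 6 libraries, the highest or lowest library was compared with the distance to its nearest neighbour, over the range of the group. Of 44 groups of Rab measures tested in this way, 15 held a library far from the others. Chance flags about 1 in 20 groups when these are independent and normally distributed. The levels here hold many zeros and come partly from genes named for their values, so this rate does not apply to them. The summed level of the Rab genes was 150 CPM in Dys replicate 4, against 3184 CPM in the next lowest Dys library.

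Of the 14 flags on single genes, 10 were on a Hyp library. Hyp replicate 4 stood apart with 747 CPM of Rab35, 432 CPM of Rab10, 761 CPM of Rab1b and 88.7 CPM of Rab33b. Hyp replicate 2 stood apart with 97.2 CPM of Rab31, 35.2 CPM of Rab2b, 83.1 CPM of Rab8a and 307 CPM of Rab18. Rab37 stood at 156 CPM in Hyp replicate 3 and Rab19 at 71.8 CPM in Hyp replicate 6. Among Dys libraries, replicate 2 had 290 CPM of Rab5a, replicate 3 had 616 CPM of Rab22a and 679 CPM of Rab1, and replicate 6 had 7.46 CPM of Rab32. The flagged library was the only one of its condition with reads for Rab2b, Rab33b and Rab19 in Hyp and for Rab32 in Dys, so a gene seen in 1 library of a condition is flagged by construction.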

How the results depend on the processing

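Calls of Rab genes rose from 0 only with DESeq2, to 6 in Hyp against WT, 5 in Dys against WT and 1 in Hyp against Dys. The Rab genes called are those named for DESeq2 above, among them Rab9 (log2 fold change -11.37) in Hyp against WT and Rab27a (-9.28) in Hyp against Dys. Of all 6242 genes with an adjusted p, DESeq2 called 1528, 1315 and 323 in the same order. The other alternatives gave 0 calls. They were no TMM, TMMwsp, other filters, only the conditions compared, and mitochondrial and hemoglobin genes left out. Further ones exchanged or left out the crossed libraries, added a covariate for the series of title numbers, or left out each library. By title, all WT libraries fell in the same series, with Dys and Hyp replicates 1 to 3. By the numbers of the counts, all Hyp libraries would fall in the other series and all WT and Dys libraries in this one. Series and the Hyp condition then cannot be told apart, so the covariate does not settle an effect of series. The test on presence also gave 0 calls in every alternative, but its smallest possible p, 0.0119 against WT and 0.1 with the crossed libraries left out, makes this no sign of stability. Unadjusted, Rab9 passed 0.05 in Hyp against WT without WT replicate 2 (exact p = 0.0357), where 17 of all 13042 genes passed. In Hyp against Dys, Rab27a passed without Dys replicate 1 or without Dys replicate 4 (exact p = 0.0152 each). There 40 of 12904 and 213 of 13261 genes passed. Rab27a also passed without WT replicate 1, Dys replicate 4 and Hyp replicate 5 together (exact p = 0.0476), where 220 of 13230 genes passed. In the other alternatives no Rab gene passed.

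The summed Rab level in WT rose to 5435 CPM when mitochondrial and hemoglobin genes were left out of the library size. Leaving out 1 library gave means of 3186 to 4488 CPM in WT, 2798 to 3620 in Dys and 2967 to 4144 in Hyp, and 11.5 to 22.5, 20.8 to 28 and 14.8 to 20 Rab genes per library. The share of pairs at 0 reads was 33.1% where at least 50 reads were predicted, 40.2% to 46.9% with 1 library left out, and 37.4% without WT replicate 1, Dys replicate 4 and Hyp replicate 5, which was chosen after seeing the data.

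Fold changes of single genes without a call turned sign in places. With the crossed libraries exchanged, the log2 fold changes were -0.83 for Rab27b in Hyp against WT, -0.031 for Rab11a, -0.58 for Rab27b, -0.47 for Rab32 and 1.12 for Rab9 in Hyp against Dys. With these libraries left out they were -0.80 for Rab27b and -0.17 for Rab7 in Hyp against WT, and without the 3 libraries named above -0.27 for Rab27b and -0.28 for Rab7. Leaving out 1 library gave -0.53 to 0.64 for Rab27b and -0.57 to 5.46 for Rab7 in Hyp against WT, and -0.0024 to 0.74 for Rab11a in Hyp against Dys. The highest Rab7 value came without WT replicate 2, the library that held nearly all Rab7 reads of WT. The cause of these changes was not tested.

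No paired analysis was possible because the labels carry no replicate numbers, and those used here follow the order of the samples and pair nothing. Depth limits what absence means, above all in WT replicate 1, and 3 WT libraries limit each comparison with WT. Intervals treat reads, or pairs of a gene and a library, as independent. Amplified copies and genes of the same library are not, so the intervals are too narrow. Reads shared with other genes could not be reassigned from the counts.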
